A study of Mus musculus with 8 samples.

Results

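Antioxidant enzymes are described here in aged mouse liver by 10 genes chosen by name: the superoxide dismutases Sod1 and Sod2, catalase (Cat), the glutathione peroxidases Gpx1, Gpx3 and Gpx4, the peroxiredoxins Prdx1, Prdx2 and Prdx6, and thioredoxin (Txn1). Of the 10, 8 had a probe set under their own symbol, out of 8251 genes so named on the array. No value is given for Prdx1, since its 2 probe sets also carry the symbol of a second gene (Gm21399), nor for Prdx6, for which no probe set was matched here. The 8 measured genes were read by 11 probe sets. The brightest set of a gene gave its values, and the other 3 sets (1 for Cat and 2 for Prdx2) served as a check.

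The data were 8 liver arrays (Affymetrix mouse U74Av2), 1 from each of 8 female Ames mice, all in 1 group. The animals were phenotypically normal, of genotype +/+ or +/df, where df is the recessive Ames dwarf allele, and the 2 genotypes are not told apart in the labels. All were calorie restricted, receiving 30% less of a standard pelleted diet than freely fed normal females ate, and they were killed at 24 to 26 months of age. Because restriction and age were shared by every animal, what can be read from the arrays is how much of each transcript was present and how far animals differed. No effect of diet, age or genotype can be read from them. Whole liver was used, so fewer cells of a type and less RNA per cell cannot be told apart.

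These enzymes dispose of reactive oxygen in steps. Superoxide dismutases turn superoxide into hydrogen peroxide. Catalase, in peroxisomes, breaks peroxide down to water and oxygen, while glutathione peroxidases and peroxiredoxins reduce peroxides with electrons from glutathione or thioredoxin. The liver is rich in peroxisomes and mitochondria, both sources of peroxide, and several of these enzymes are among its abundant proteins.

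The start regions of Sod1, Cat and Txn1 are shown because these genes stand for 3 steps (dismutation, peroxide breakdown and thiol supply) and all had their highest signal on the same array. Each line gives the 250 bases before the annotated start in RefSeq (GRCm38.p6), read 5′ to 3′ on the gene's own strand. Capitals mark matches, on either strand, to 4 motifs. These are the GC box, spelled GGGCGG, and the box named CCAAT after its letters, with the TATA box, spelled TATAAA, and the core of the antioxidant response element, spelled TGACNNNGC. Neighbouring matches to the same motif can overlap.
Sod1, chr16:90220512-90220761, plus strand: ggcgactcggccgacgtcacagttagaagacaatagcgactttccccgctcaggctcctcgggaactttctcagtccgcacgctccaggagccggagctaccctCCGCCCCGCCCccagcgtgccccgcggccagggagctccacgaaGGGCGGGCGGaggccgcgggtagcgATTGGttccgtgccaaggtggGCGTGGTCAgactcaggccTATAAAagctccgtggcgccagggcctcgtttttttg
Cat, chr2:103485154-103485403, minus strand: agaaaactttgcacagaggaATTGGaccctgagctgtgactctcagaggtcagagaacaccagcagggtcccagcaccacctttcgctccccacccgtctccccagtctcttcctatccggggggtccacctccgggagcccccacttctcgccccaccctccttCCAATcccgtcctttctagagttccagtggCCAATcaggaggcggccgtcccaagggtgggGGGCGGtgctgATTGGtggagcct
Txn1, chr4:57956412-57956661, minus strand: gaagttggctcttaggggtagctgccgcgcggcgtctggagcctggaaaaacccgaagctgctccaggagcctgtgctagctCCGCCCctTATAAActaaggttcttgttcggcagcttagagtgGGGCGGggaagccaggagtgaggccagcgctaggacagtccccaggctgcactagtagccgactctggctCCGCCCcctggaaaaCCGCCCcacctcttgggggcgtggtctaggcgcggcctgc

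Sod1 held 4 GC boxes, 1 CCAAT box, 1 TATA box and 1 antioxidant response element core in this stretch. Cat held 1 GC box and 4 CCAAT boxes, and Txn1 held 4 GC boxes and 1 TATA box. Of all 32851 start regions of that length in the table, 32.7% held a GC box, 33.8% a CCAAT box, 12.4% a TATA box and 10.2% the response element core. Among the 8 measured genes the core was found at Sod1 only, and Gpx1 and Prdx2 held none of the 4 motifs. A match is a description of the letters and does not show that a factor binds there.

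The arrays carried the profile of liver. Hepatocyte markers (9 of 10 listed genes measured, with albumin, transthyretin and Cps1 among them) had a summed signal of 152797 to 166838 over the 8 arrays. Replicates 5 and 6 stood apart. The log2 ratio of the 3′ over the 5′ control set of Gapdh reached 4.35 on replicate 5 but only −0.24 to 0.33 elsewhere. For pyruvate carboxylase it was 4.33 and 4.30 on replicates 5 and 6, with 1.42 to 2.76 elsewhere. The median correlation with the other arrays was 0.881 for replicate 5, 0.943 for replicate 6 and 0.962 to 0.974 for the rest. Values below are quantile-normalized signals in arbitrary units, as mean ± SD over 8 arrays, and the main results are also given without these 2 arrays. Signals of different genes come from different probes and are not ranked against each other.

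For the 8 enzyme transcripts the highest array exceeded the lowest by 1.35-fold for Sod1 and by 2.01-fold for Gpx3, with the other 6 genes between. The median of this range was 1.62-fold over the 8 genes and 1.82-fold over all 6211 probe sets above the median level, which is the filter used here and which all 8 genes passed. Neither this median nor the shares that follow were matched for signal level, as the variance ratios further below are. A range above 2-fold was seen for 1 of the 8 genes (Gpx3), where 38.6% of all probe sets had one. Without replicates 5 and 6 it was 0 of 8 against 11.2%, and the ranges of the 8 genes then ran from 1.19-fold (Cat) to 1.77-fold (Gpx3). On the deposited scale the ranges over 8 arrays ran from 1.49-fold (Sod1) to 1.98-fold (Gpx3).

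**Figure D1:**
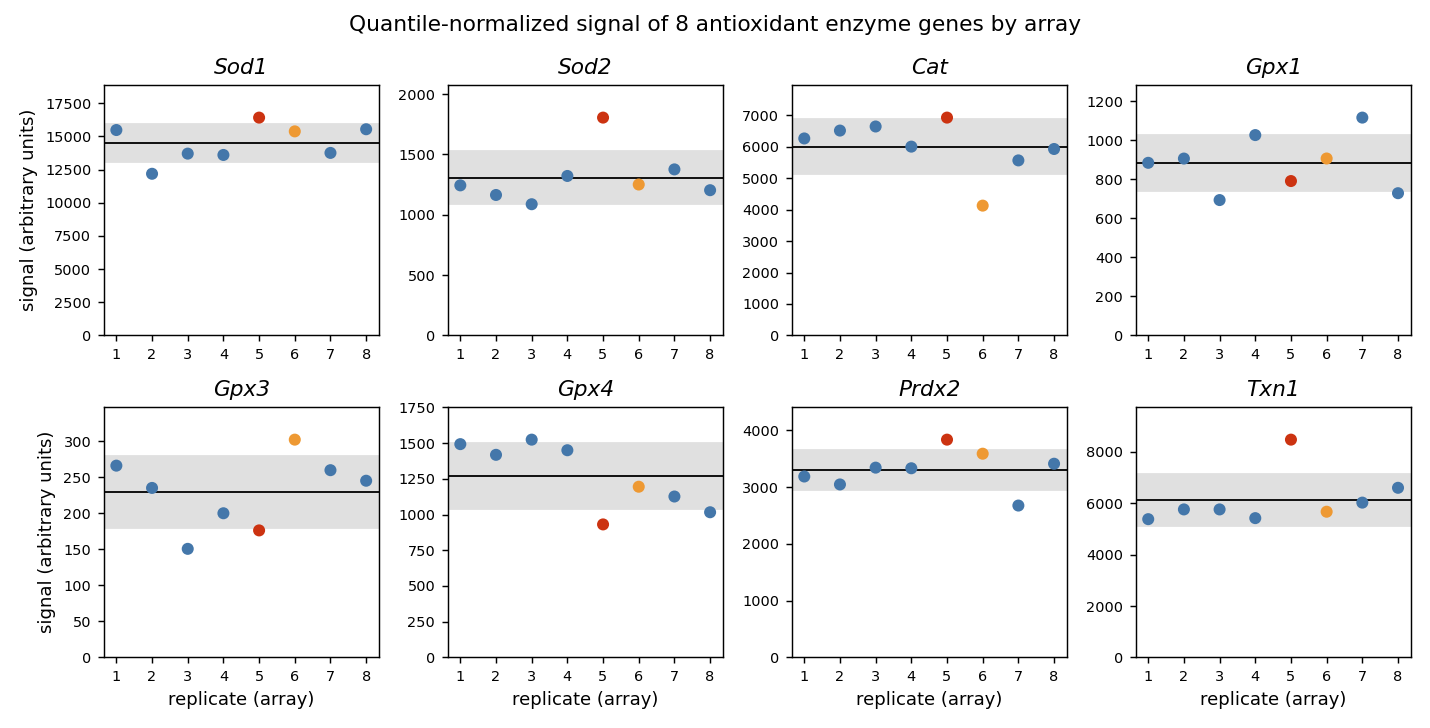
Quantile-normalized signal (arbitrary units, axis from 0) of the brightest probe set of each gene on each of the 8 arrays; the line is the mean, the grey band ± 1 SD, red marks replicate 5, orange replicate 6 and blue the rest. Txn1 and Sod2 stand high on replicate 5, Cat stands low on replicate 6, and Sod1 and Prdx2 lie within a narrow band.

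Sod1 encodes the copper and zinc dismutase of the cytosol. Its signal (probe set 100538_at) was 14503 ± 1406 (SD, n = 8), from 12179 on replicate 2 through a median of 14563 to 16412 on replicate 5. The arrays formed a continuous series, with 15374 to 15534 on replicates 1, 6 and 8 just under the highest. Its coefficient of variation was 9.70%, the smallest among the 8 genes. On the deposited scale replicate 5 read 17817.

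Sod2, the manganese dismutase of mitochondria, had a signal (96042_at) of 1306 ± 220.3 (n = 8). It was lowest on replicate 3 at 1087, had a median of 1247, and reached 1805 on replicate 5. The next highest array was replicate 7 at 1376, so replicate 5 stood clear of the rest. Left out with replicate 6, it leaves a range of 1.27-fold in place of 1.66-fold. Macrophage markers (10 of 11 listed genes measured) had a summed signal of 5508 on replicate 5, 6302 on replicate 6 and 6508 to 7984 elsewhere. The low sum rested mainly on the complement gene C1qa, at 80.0 on replicate 5 and 989 to 1557 on the arrays other than 5 and 6. Without C1qa replicate 5 (5428) lay inside the range of those arrays (5302 to 6427). C1qb (319 against 515 to 680), C1qc (948 against 1265 to 1524) and Cd68 (333 against 369 to 464) were also lowest on replicate 5. Csf1r and Lyz2 were highest there. The part of macrophage RNA in the Sod2 value was not tested.

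Catalase (160479_at) was at 6001 ± 871 (n = 8). The values ran from 4130.5 on replicate 6 through a median of 6138 to 6932 on replicate 5. Replicate 6 was apart from the others, the next lowest being replicate 7 at 5569.9. Among the 6 arrays other than 5 and 6 the highest exceeded the lowest by 1.19-fold. Red cells are rich in catalase, and the 4 of 10 listed erythroid genes that were measured summed to 2966 on replicate 6 and to 6781 to 7814 on the other 7. Most of that gap was α-globin (Hba-a1), at 2395 there against 5989 to 7174 elsewhere. Alas2 was also lowest there, at 314, but Epb42 was highest, at 122 against 27.4 to 35.2, and Slc4a1 at 135 lay inside its range. Without Hba-a1 the sum on replicate 6 (571) lay inside the range of the other arrays, and the part of red cell RNA in the Cat value was not tested.

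The second probe set of Cat did not follow the first. Set 161877_f_at, whose suffix marks probes shared with related sequences, was at 804 ± 159.7, from 578 on replicate 5 to 1029 on replicate 7. Replicate 5, the highest array for the first set, was thus the lowest for the second. Over the 8 arrays the Pearson correlation of the 2 sets was 0.01 (exact permutation p = 0.977) and Spearman's rho −0.21 (exact permutation p = 0.619). Pearson's r was −0.02 without the 2 arrays farthest from the median of the first set (replicates 5 and 6), and the adjusted p over the 2 pairs of probe sets tested was 0.977 for Pearson and 0.840 for Spearman.

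The glutathione peroxidases Gpx1, Gpx3 and Gpx4 are selenoproteins, with selenocysteine at the active site. Gpx1, the main cytosolic form, had a signal (94132_at) of 881 ± 143 (n = 8). Its lowest value was 693 on replicate 3, its median 894 and its highest 1115 on replicate 7. No array stood clear of the others, and replicates 5 and 6, at 790.2 and 906, lay inside the range. Its 1.61-fold range was therefore the same without them.

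Gpx3, the secreted plasma form, had a signal of 229.6 ± 50.4 (101676_at, n = 8). It ran from 151 on replicate 3 through a median of 240.3 to 302 on replicate 6, with replicate 5 second lowest at 176. Its coefficient of variation of 21.9% was the largest of the 8 genes. Adipose tissue expresses Gpx3, and the adipose markers (5 of 7 listed genes measured) summed to 588 on replicate 5, 2136 on replicate 6 and 1133 to 1752 on the others. That pattern was carried by leptin (Lep), at 333 on replicate 5, 1942 on replicate 6 and 979 to 1456 on the rest. Fabp4 was highest on replicate 5 (154), Adipoq on replicate 6 (64.7) lay inside its range, and Cidec lay under the floor of 24.6 on every array. The part of adipose RNA in the Gpx3 value was not tested.

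Gpx4, which reduces lipid hydroperoxides in membranes, was at 1269 ± 231 (94897_at, n = 8). The lowest array was replicate 5 at 931, the median 1306 and the highest replicate 3 at 1524. Gpx4 read 1418 to 1524 on replicates 1 to 4 and 931 to 1195 on replicates 5 to 8, a split noticed after the values were seen. How many of all probe sets split the same way was not counted. Replicate numbers are only names, and the labels give no reason for such a split. The log2 relative signal of the spike-in control sets also differed, at 0.16 to 0.26 on replicates 1 to 4 and −0.38 to 0.01 on replicates 5 to 8. The part of technical differences between arrays in the Gpx4 values was not tested. The range of Gpx4 was 1.64-fold over all arrays and 1.5-fold without replicates 5 and 6.

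Prdx2, a cytosolic peroxiredoxin abundant in red cells, was at 3302 ± 349 (100331_g_at, n = 8). The values ran from 2675 on replicate 7 through a median of 3337 to 3835 on replicate 5, and the arrays between formed a close series. On replicate 6, where Hba-a1 and Alas2 were lowest but Epb42 was highest, Prdx2 was second highest at 3587. The part of red cell RNA in the Prdx2 value was not tested. The level rests on a set whose suffix marks probes common to a group of sequences. The other 2 sets were dim, at 87.3 ± 36.6 (99608_at) and 3.78 ± 1.84 (100330_at), and neither passed the level filter. Set 99608_at had a Pearson correlation of −0.16 with the bright set (exact permutation p = 0.719, adjusted 0.977), a rho of −0.10 (exact permutation p = 0.840, adjusted 0.840) and an r of −0.08 without replicates 5 and 7. Without replicates 5 and 6 that r was −0.89 (exact permutation p = 0.00556, adjusted 0.0111) and rho −0.83 (exact permutation p = 0.0583, adjusted 0.117).

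Thioredoxin, the small dithiol protein that gives electrons to peroxiredoxins, was at 6140.0 ± 1020.5 (92807_at, n = 8). It was lowest on replicate 1 at 5384, had a median of 5763 and reached 8479.8 on replicate 5. The next array was replicate 8 at 6605, so replicate 5 stood clear again. Without replicates 5 and 6 the range was 1.23-fold in place of 1.58-fold. On the deposited scale replicate 5 read 9377, against 5260 to 6818 on the others.

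None of the 8 transcripts passed a test for more or less spread between animals than transcripts of like level. limma's test of the variance over arrays, fitted on all 6211 probe sets, called 0 of 8 genes (0.0% of all probe sets), with Benjamini-Hochberg adjusted p-values of 0.988 to 0.994. At an unadjusted p of 0.05 it picked 0 of 8, where 5.67% of all probe sets were picked. The opposite tail, for less spread than like level, also called 0 of 8 (0.0% of all) with adjusted p-values of 0.987 and 0 of 8 unadjusted (5.30% of all). The log2 ratio of a gene's variance to that of its level ran from −1.11 for Prdx2 to 0.41 for Cat, was above 0 for 4 of the 8 genes (53.4% of all), and had a median of −0.06 against 0.12 over all probe sets. These ratios rested in part on replicates 5 and 6. Without both, the ratio was −0.61 for Cat, −0.27 for Txn1, 0.87 for Sod1 and 1.36 for Gpx1, each on the other side of 0, and it was −0.78 for Sod2, 0.53 for Gpx3, 1.20 for Gpx4 and −0.30 for Prdx2. limma still called 0 of 8. A call missed in 8 arrays does not show that the spread was alike.

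**Figure D2:**
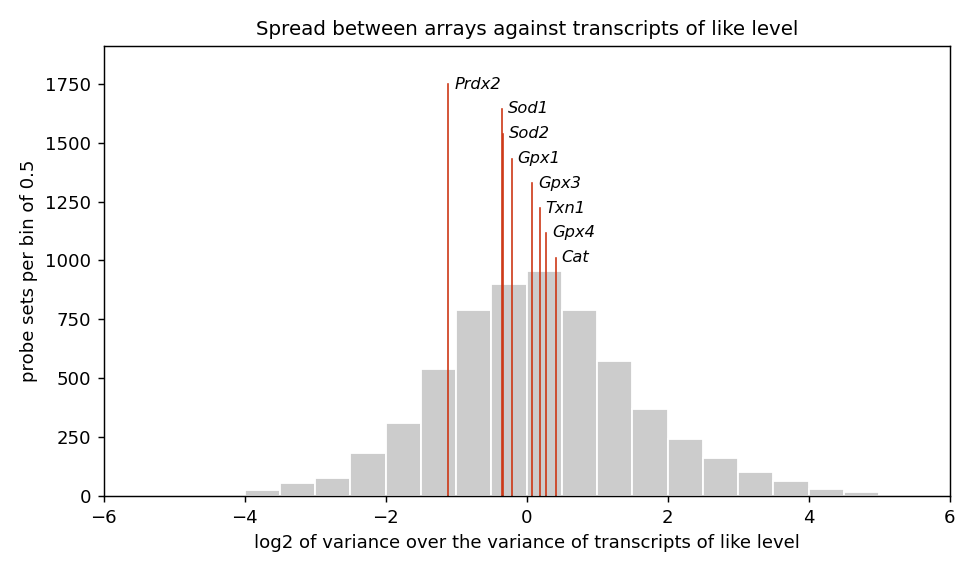
Histogram of the log2 ratio of each probe set's variance over the 8 arrays to the variance of transcripts of like level, for 6211 probe sets in bins of 0.5, with a red line for each of the 8 genes (line heights only separate the names). The genes lie between −1.11 (Prdx2) and 0.41 (Cat), in the middle of the distribution.

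Replicate 5 held the highest or lowest value of 6 of the 8 enzymes, near the share of all probe sets with an extreme there (61.9%). It was the highest array for 5 of the 8 genes (Sod1, Sod2, Cat, Prdx2 and Txn1), where 33.2% of all probe sets peaked there, and the lowest for 1 (Gpx4), against 28.7%. With the median of the 6 remaining arrays (all but 5 and 6) as the base, replicate 5 was 1.48-fold higher for Sod2, 1.47-fold for Txn1, 1.20-fold for Sod1, 1.18-fold for Prdx2 and 1.13-fold for Cat. The median of those 6 arrays exceeded replicate 5 by 1.54-fold for Gpx4, 1.36-fold for Gpx3 and 1.13-fold for Gpx1. By the brightest sets, the array thus lay above the median for the 5 genes without selenocysteine and below it for the 3 glutathione peroxidases, a grouping made after the values were seen. Of all probe sets, 52.9% lay above that median on replicate 5 and 47.1% below. All 8 genes lay within the middle 90% of probe sets, which on this array ran from −1.42 to 0.90 on the log2 scale. The grouping did not hold for every value without selenocysteine. The second set of Cat was at −0.60 on the log2 scale, and Sod3 and Prdx3 were lowest on replicate 5, while Prdx4 was highest there. Replicate 5 is the array with the Gapdh ratio of 4.35, and the part of RNA quality in these values was not tested.

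Replicate 6 moved fewer of them. There the median of the 6 other arrays exceeded Cat by 1.49-fold and Gpx4 by 1.20-fold, and Gpx3 was 1.26-fold higher than that median. Sod2, Gpx1 and Txn1 lay within 0.03 of the median on the log2 scale, and Sod1 and Prdx2 were 1.12-fold and 1.10-fold above it. Replicate 6 was the lowest array for Cat and the highest for Gpx3, against 16.3% and 18.4% of all probe sets.

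**Figure D3:**
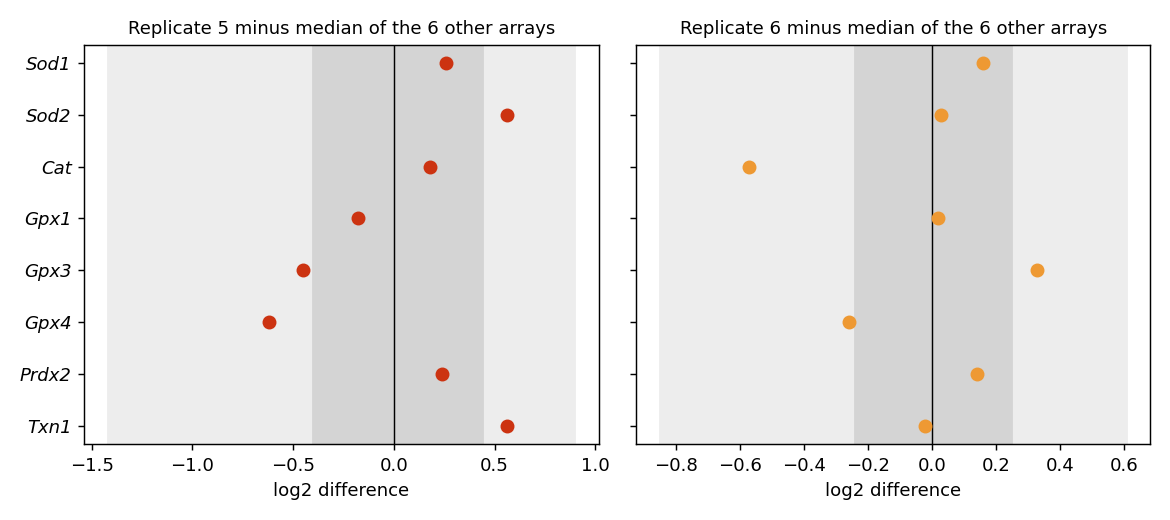
Log2 difference of replicate 5 (left) and replicate 6 (right) from the median of the 6 other arrays for each gene (points), over the middle 50% (dark band) and 90% (light band) of all 6211 probe sets. On replicate 5, Sod2 and Txn1 lie at 0.56 and Gpx4 at −0.62, and on replicate 6 Cat lies at −0.57.

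Whether the enzymes rose and fell together from animal to animal was asked over all 28 pairs of the 8 genes. No common direction was seen: 13 pairs had a Pearson correlation above 0 and 15 below, with a median of −0.06. Exact permutation of the 8 arrays (40320 orders, 2-sided) passed 0 pairs after Benjamini-Hochberg adjustment over the 28, for Pearson's r (lowest adjusted p = 0.0597) and for Spearman's rho (lowest adjusted p = 0.401). Unadjusted, 3 pairs passed for r and 2 for rho. The sign of r changed for 10 of the 28 pairs without replicates 5 and 6.

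Gpx4 and Txn1 gave the strongest relation, in opposite directions. Pearson's r was −0.84 (exact permutation p = 0.00213, adjusted p = 0.0597) and rho −0.78 (exact permutation p = 0.0287, adjusted p = 0.401) over 8 arrays. On the arrays where Txn1 was lowest, replicates 1 and 4, Gpx4 was among its 3 highest values, and on replicates 5 and 8, where Txn1 was highest, Gpx4 was lowest. Without the 2 arrays farthest from the median of Gpx4 (replicates 5 and 8) r was −0.63. Without replicates 5 and 6 it was −0.90 (exact permutation p = 0.0167, adjusted p = 0.298), and leaving out each array in turn gave −0.88 to −0.82. The pair passed the adjusted threshold only when replicate 3 was left out (r = −0.87, adjusted p = 0.0278), by the exact permutation test. The spike-in difference between replicates 1 to 4 and 5 to 8 was not taken into account in this relation.

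Cat and Gpx3 also ran in opposite directions, without passing the adjusted threshold. Pearson's r was −0.71 (exact permutation p = 0.0418, adjusted p = 0.390) and rho −0.79 (exact permutation p = 0.0279, adjusted p = 0.401). Without replicates 5 and 6, which are here the 2 arrays farthest from the median of Cat, r was −0.57 on the same normalized values.

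Prdx2 and Txn1, a peroxidase and its reductant, had an r of 0.49 (exact permutation p = 0.230, adjusted p = 0.586) and a rho of 0.32 (exact permutation p = 0.433, adjusted p = 0.787). Without replicates 5 and 7, the farthest from the median of Prdx2, r was 0.24, and without 5 and 6 it was −0.01. The 2 dismutases had an r of 0.52 (exact permutation p = 0.175, adjusted p = 0.544) and a rho of 0.40 (exact permutation p = 0.327, adjusted p = 0.727). Their r was −0.13 without replicates 2 and 5 and 0.14 without 5 and 6. The relation rested on replicate 5, with an r of 0.15 without that array and 0.49 without replicate 2.

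Sod2 and Txn1, both high on replicate 5, had an r of 0.77 (exact permutation p = 0.0750, adjusted p = 0.473) and a rho of 0.23 (exact permutation p = 0.590, adjusted p = 0.821). The relation rested on that array: r was −0.18 without replicates 3 and 5 and −0.10 without replicate 5 alone. Sod2 and Gpx4 had an r of −0.69 (exact permutation p = 0.0364, adjusted p = 0.390) and a rho of −0.60 (exact permutation p = 0.132, adjusted p = 0.617), with an r of −0.09 without replicates 3 and 5. It was −0.36 without replicate 5 alone, −0.36 without 5 and 6, and −0.61 without replicate 3.

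**Figure D4:**
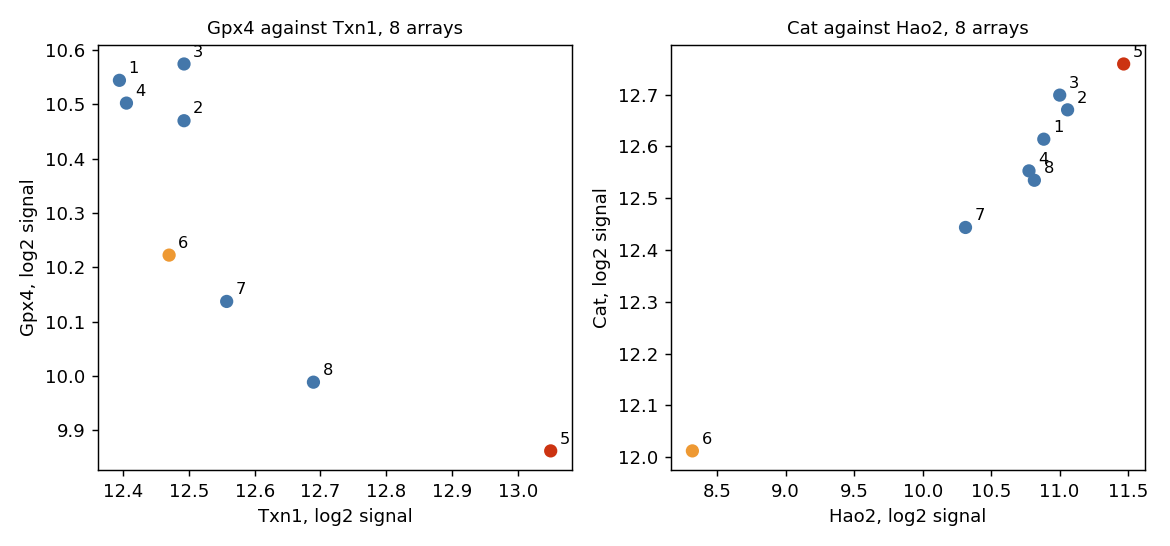
Log2 signal on each array (points numbered by replicate, red 5, orange 6) of Gpx4 against Txn1 (left) and of Cat against Hao2 (right). Gpx4 falls as Txn1 rises across the arrays (r = −0.84), and Cat follows Hao2 (r = 0.987, 0.93 without replicates 5 and 6).

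The genes whose pattern over the arrays was most like that of each enzyme were then found, by Pearson's r of log2 signal among the 4809 genes above the level filter. With 8 arrays and that many genes, high values of r arise in number, and they are given as a description without a test. By its brightest probe set, Cat had 64 genes above an r of 0.9. Its second set, with an r of 0.01 to the first, was not used here. For Cat the nearest were Hao2, a peroxisomal oxidase that makes hydrogen peroxide (r = 0.987), and Idh1, the cytosolic and peroxisomal isocitrate dehydrogenase that makes NADPH (r = 0.982). Hao2 read 319 on replicate 6, 1272 on replicate 7 and 1754 to 2132 on replicates 1 to 4 and 8, with 2832 on replicate 5, and Idh1 read 2106 on replicate 6 and 3665 to 5283 on the others. Both stayed close to Cat without replicates 5 and 6, with an r of 0.93 for Hao2 and 0.83 for Idh1.

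Txn1 was closest to the ubiquitin-conjugating enzyme gene Ube2b (r = 0.983, 0.96 without replicates 5 and 6) and the complement lectin pathway protease Masp1 (0.971 and 0.97), and 106 genes exceeded an r of 0.9 with it. Sod2 was closest to the proteasome subunit Psmd1 (0.980 and 0.93) and the pyrimidine synthesis enzyme Umps (0.964 and 0.84), with 58 genes above 0.9. Ube2b, Masp1, Psmd1 and Umps were each highest on replicate 5, as Txn1 and Sod2 were. Sod1 was closest to the nuclear pore gene Seh1l (0.961 and 0.94) and the mitochondrial ribosome gene Mrpl55 (0.936 and 0.93), with 4 genes above 0.9.

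Gpx1 was closest to Commd9 (0.975 and 0.98) and Miip (0.949 and 0.95), and Gpx3 to the vault protein gene Mvp (0.944 and 0.95) and Rgl2 (0.934 and 0.90). Gpx4 was closest to Tsc22d4 (0.956 and 0.96) and Lmbr1l (0.939 and 0.95), and Prdx2 to Tm2d2 (0.972 and 0.98) and Ubp1 (0.948 and 0.92). None of these nearest genes was itself one of the enzymes measured here.

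Further genes of the same chemistry were read from lists of the pathway. Among other dismutases, glutathione peroxidases and peroxiredoxins, 6 of 9 listed genes were measured and 4 passed the level filter, and limma's variance test called 0 of 4 in either direction. Mitochondrial Prdx3 was at 3179.5 ± 507, from 2518 on replicate 5 to 3761 on replicate 1. Secretory pathway Prdx4 was at 1775 ± 431, with 1148 on replicate 6 and 2708 on replicate 5, and extracellular Sod3 at 999 ± 184, lowest on replicate 5 at 632. Gpx2 was at 286 ± 43.7.

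The thioredoxin and glutathione reducing systems had 11 of 14 listed genes measured and 10 kept, with 0 called by limma and 1 picked unadjusted as more variable (5.67% of all probe sets). That gene was Txnip, an inhibitor of thioredoxin, at 2214 ± 799 with 749 on replicate 5 and 1629 to 2960 elsewhere (a 3.95-fold range, limma's adjusted p = 0.864). Replicate 5 was thus the lowest array for Txnip and the highest for Txn1, where 28.7% of all probe sets were lowest and 33.2% highest there. The part of RNA quality on that array was not tested. Mitochondrial thioredoxin reductase Txnrd2 was at 453 ± 129, lowest on replicate 5 at 214, while cytosolic Txnrd1 was at 1498 ± 163 with a 1.39-fold range and Glrx at 1429 ± 206.

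With all 8 arrays, oxidases that make hydrogen peroxide or superoxide had the widest spread of these lists, with a median log2 variance ratio of 1.10 over the 6 kept of 8 measured genes, against 0.12 over all probe sets. limma called 0 of 6 and picked 1 unadjusted, where 5.67% of all probe sets were picked. That gene was Hao2 (8.87-fold range, limma's adjusted p = 0.842). Its range rested on replicates 5 and 6, at 2832 and 319, and the other arrays read 1272 to 2132. Xanthine dehydrogenase Xdh was at 1024 ± 299.6, lowest on replicate 3 at 532, while Pipox and Maoa varied by 1.37-fold and 1.46-fold.

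In copper and selenium supply (5 kept of 7 measured), the chaperone Ccs, which loads copper into Sod1, read 1000.5 on replicate 5, with 2143 to 2592 elsewhere. Sod1 itself was highest on that array, and the part of RNA quality in either value was not tested. The copper importer Slc31a1 varied by 1.22-fold and Atox1 by 1.45-fold, while Pstk, of selenocysteine synthesis, varied by 2.06-fold. Repair enzymes (5 kept of 5 measured) had a median ratio of −0.63, with Pon1 and Pon2 each varying by 1.30-fold, Park7 by 1.46-fold and Pon3 by 1.60-fold. Regulators (7 kept of 10 measured) had a median of 0.29. The repressor Bach1 read 1195 on replicate 5, 991 on replicate 6 and 392 to 546 on the others, Sesn1 varied by 2.31-fold, Mafk by 1.71-fold and Foxo3 by 1.68-fold. limma called 0 genes of these 3 lists in either direction, and unadjusted it picked Slc31a1 (limma's adjusted p = 0.855) and Pon2 (limma's adjusted p = 0.902) as less variable, where 5.30% of all probe sets were picked.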

How the data were processed

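Per the labels, liver RNA was hybridised to Affymetrix mouse U74Av2 arrays and read on a Hewlett-Packard GeneArray scanner. The deposited values are intensities on a linear scale, 1 per probe set and array. The 2% trimmed mean lay at 500.38 to 500.41 on each array, so the deposited intensities had been scaled. How background and mismatch probes were handled is not given in the sources used here. Of 12488 probe sets in all, 66 were controls. Symbols came from the platform annotation, and 10817 of the 10833 probe sets with 1 symbol were matched by gene ID to RefSeq (GRCm38.p6).

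The 12422 other probe sets were quantile-normalized, which can narrow the spread of bright transcripts, raised to a floor at the 20th percentile (24.6), and put on the log2 scale. Probe sets above the median level (6211) were tested with limma (3.58.1, R 4.3.3): each variance between arrays, on 7 degrees of freedom, was set over a robust, level-dependent prior on 4.03, using 1-sided F tests of both tails and Benjamini-Hochberg adjustment over all 6211. The test was tested on simulated data. The raised spreads in that simulation were far larger than those of the enzymes, so it does not show power for spreads like theirs. Correlations used exact permutation over arrays.

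Named genes were the 10 enzymes, the 2 most and 2 least variable kept genes of each pathway list, and the 2 genes nearest in pattern to each enzyme. The enzymes and lists were chosen with earlier results of these data known. Each array is 1 animal, so p-values cover animal and technical spread together, and the number of arrays limits precision.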

Additional observations from a re-analysis of the deposited data

Results flagged for a closer look

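Single arrays far from the rest were sought for each of the 9 kept probe sets of the enzymes, by the gap between the extreme array and its neighbour as a share of the whole range, set against Dixon's critical value for 8 arrays. Chance passes about 1 in 20 such groups when the 8 arrays are alike. Replicates 5 and 6 stood apart from the rest, and 61.9% of all probe sets had their highest or lowest value on replicate 5. How many of all probe sets pass the same rule was not counted, so the passes below cannot be read as particular to the enzymes. Sod2 was 1804.9 on replicate 5, a gap of 0.536 of the range. Txn1 was 8479.8 on the same array, with a gap of 0.550. Cat was 4130.5 on replicate 6, with a gap of 0.577. The second probe set of Cat did not show it, with 712 on replicate 6 and its lowest value on replicate 5. No other kept probe set of the enzymes passed the critical value.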

How the results depend on the processing

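No paired analysis was possible because the labels give 1 group. The limma counts of 0 enzymes, in both tails, were also 0 under each alternative run: values as deposited, the floor moved to the 40th percentile, the level filter removed or moved to the 75th (which left 7 of the 8), the mean over probe sets, a prior that is not robust, the Gapdh ratio as covariate, each array left out, and both arrays 5 and 6 left out. In the main run 0 of all 6211 probe sets passed in either tail. limma's lowest adjusted p was 0.842 for more and 0.525 for less spread. A test that called no probe set at all had little room to call an enzyme, so the repeated 0 says little about the enzymes. With the level filter removed, the log2 variance ratios of the 8 enzymes ran from 4.14 to 5.58. That run also took in the probe sets at the floor, and its prior had 0.829 degrees of freedom in place of 4.03. Its ratios are therefore not comparable with the main ones and do not show a wider spread of the enzymes. Without replicate 6 alone the log2 variance ratio of Cat was −1.38. The count of enzymes with a range above 2-fold, 1 with all arrays (Gpx3), was 0 with the deposited scaling (1.98-fold), 0 with the stricter filter, which drops Gpx3, and 0 without both arrays 5 and 6. It lay between 0 and 1 when single arrays were left out, and was 0 without replicate 2, 3, 5 or 6, with a Gpx3 range of just under 2-fold, 1.71, 1.99 and 1.77. The count of correlated pairs of enzymes was 0 under the other alternatives and lay between 0 and 1 with single arrays left out (1 without replicate 3). The count of correlated pairs of probe sets was 1 without both arrays 5 and 6. That pair was the bright and a dim set of Prdx2, which ran in opposite directions (r = −0.89). With the mean over probe sets the mean log2 level was 11.08 for Cat (12.54 by its brightest set) and 7.54 for Prdx2 (11.68). These means take in the dimmer sets of the 2 genes. For Cat that is a set at a log2 level of 9.63. For Prdx2 it is the sets with signals of 87.3 and 3.78, the latter raised to the floor. The cause of the other changes was not tested.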

Other observations

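On replicate 5 the 3 measured glutathione peroxidases lay below the median of the 6 remaining arrays (all but 5 and 6), and other selenoprotein genes of the lists were then read on that array. The grouping was made after the values of the enzymes were seen, so it carries no test. Of the 6 selenoprotein genes above the level filter other than those 3 enzymes, 4 lay below that median on replicate 5, where 47.1% of all probe sets did. On the log2 scale Txnrd2 was at −1.0 relative to it, Gpx2 at −0.51 and Sephs2, the selenophosphate synthetase, at −0.50, and each had its lowest value there. Msrb1, a methionine sulfoxide reductase, was at −0.21. Txnrd1 and Txnrd3 went the other way, at 0.24 and 0.15. The part of RNA quality on this array was not tested.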
